A study of Mus musculus with 12 samples.

Results

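The genes described here are 9 genes by which GABAergic interneurons are recognised, *Dlx1*, *Dlx2*, *Dlx5*, *Dlx6*, *Lhx6*, *Maf*, *Reln*, *Calb2* and *Pvalb*. They were chosen by mouse gene symbol, and all 9 were found among the 55471 genes of the count table. RNA-seq was performed on primary hippocampal cultures made from wild-type CD1 mouse embryos of mixed sex at embryonic day 17. Both groups received an LNA gapmer, a chemically modified antisense oligonucleotide that directs RNase H to a nuclear RNA, delivered in lipid nanoparticles at day in vitro (DIV) 7 and followed by collection at DIV 10. In the 6 *Neuid* KD libraries the gapmer targeted the long noncoding RNA *Neuid* (Gm10419), and in the 6 control libraries it was a negative control gapmer. The cultures are a mixture of excitatory neurons, interneurons and glial cells that was sequenced in bulk. The labels do not say which libraries came from separate litters or culture preparations, so the p-values measure the spread between these libraries, which may be technical.

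Interneurons of the hippocampus are born in the ganglionic eminences of the ventral forebrain and migrate to their final position. *Dlx1*, *Dlx2*, *Dlx5* and *Dlx6* encode homeodomain transcription factors that specify this lineage, and *Lhx6* and *Maf* encode factors that act later in the cells of the medial ganglionic eminence, from which the somatostatin and parvalbumin types arise. *Reln* (the secreted protein reelin), *Calb2* (calretinin) and *Pvalb* (parvalbumin) mark subtypes of mature interneurons, and *Pvalb* appears only after birth, as the cells mature. *Reln* and *Calb2* are not exclusive to interneurons, as Cajal-Retzius cells of the hippocampus make both.

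None of the 8 genes with enough reads passed the test between *Neuid* KD and control, and *Pvalb* was not tested. Over all tested genes, 8.72% passed at an adjusted p under 0.05. Of the 8 genes, 7 had a negative and 1 a positive log2 fold change, with a median of -0.10. A negative log2 fold change was found for 55.6% of all tested genes, whose median was -0.03. *Reln* and *Maf* came closest, at 84.8% and 86.4% of their mean control level. *Neuid* (Gm10419) itself was reduced from 28.4 ± 2.03 CPM (reads scaled to library size; mean ± SD, n = 6) in control to 8.05 ± 1.13 CPM (SD, n = 6) in *Neuid* KD, a log2 fold change of -1.81 (SE 0.0845, edgeR quasi-likelihood test, Benjamini-Hochberg adjusted p = 1.3e-10). It lay between 26.0 and 31.0 CPM in the control libraries and between 6.32 and 9.55 CPM in the *Neuid* KD libraries, without overlap. In a bulk culture, fewer cells of a type and less RNA per cell cannot be told apart.

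The genes lie on 5 chromosomes (GRCm38, also called mm10, with gene models of GENCODE M21). *Dlx1* (chromosome 2, 71528113 to 71533981, plus strand) and *Dlx2* (71543408 to 71546754, minus strand) stand 9427 bp apart, facing each other. *Dlx6* (chromosome 6, 6863334 to 6868568, plus strand) and *Dlx5* (6877805 to 6882085, minus strand) form the second such pair, 9237 bp apart. *Lhx6* is on chromosome 2 (36081953 to 36105408, minus strand), and *Maf* (115682942 to 115707794) and *Calb2* (110137502 to 110168210) are both on the minus strand of chromosome 8. *Reln* is on chromosome 5 (21884454 to 22344702, minus strand) and *Pvalb* on chromosome 15 (78191114 to 78206400, minus strand). Promoter windows of 300 bases, with 250 bases before and 50 after a RefSeq transcription start (GRCm38.p6), were found for 5 of the 9 genes. The windows of the *Dlx1*/*Dlx2* pair are shown as an example of a pair of neighbouring lineage genes, and that of *Reln* because *Reln* was nearest to the threshold. They are chr2:71529195-71529494 on the plus strand for *Dlx1*, chr2:71546705-71547004 on the minus strand for *Dlx2* and chr5:22344656-22344955 on the minus strand for *Reln*, each written 5′ to 3′ with CG pairs in capitals.
Dlx1: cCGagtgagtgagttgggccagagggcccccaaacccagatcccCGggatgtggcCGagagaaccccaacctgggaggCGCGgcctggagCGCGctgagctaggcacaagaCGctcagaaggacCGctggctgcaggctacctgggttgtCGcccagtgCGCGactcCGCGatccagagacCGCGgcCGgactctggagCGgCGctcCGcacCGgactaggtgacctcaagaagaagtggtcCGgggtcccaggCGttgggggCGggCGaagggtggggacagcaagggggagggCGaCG
Dlx2: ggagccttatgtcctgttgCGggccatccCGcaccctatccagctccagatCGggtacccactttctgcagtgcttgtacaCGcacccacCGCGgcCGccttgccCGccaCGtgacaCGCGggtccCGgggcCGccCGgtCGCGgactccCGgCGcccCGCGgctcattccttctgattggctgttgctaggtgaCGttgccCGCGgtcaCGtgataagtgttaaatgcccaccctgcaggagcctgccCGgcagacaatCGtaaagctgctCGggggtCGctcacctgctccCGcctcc
Reln: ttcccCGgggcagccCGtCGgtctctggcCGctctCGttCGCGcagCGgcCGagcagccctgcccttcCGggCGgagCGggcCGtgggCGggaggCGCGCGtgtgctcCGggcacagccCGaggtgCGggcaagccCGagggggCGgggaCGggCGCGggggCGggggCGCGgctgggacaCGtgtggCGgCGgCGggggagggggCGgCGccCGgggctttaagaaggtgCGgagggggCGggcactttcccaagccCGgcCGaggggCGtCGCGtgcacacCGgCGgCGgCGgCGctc
The *Reln* window was the richest of the 3 in CG pairs, with 47 pairs and a GC content of 80.7%, and 1.44% of the 32851 RefSeq windows of this length held at least as many. *Dlx1* had 27 pairs (15.5% of windows held at least as many) and *Dlx2* had 29 (12.9%), beside a median of 7 pairs over all windows. The palindrome TAATTA, which holds the core read by many homeodomain proteins and is the same on both strands, was in none of the 8 windows of these genes and in 5.29% of all windows. The *Dlx1* window lies within the GENCODE gene, whose first base is further upstream.

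Levels between genes were compared per kb of exon, as RPKM (reads per kb of exon, scaled to library size as CPM is). *Calb2* stood far above the others with a mean of 188 RPKM over the 12 libraries (159 to 206), and its range did not touch that of any other gene. *Reln* followed at 6.22 RPKM (4.37 to 7.57) and *Lhx6* at 3.88 RPKM (3.38 to 4.53). The ranges of *Reln* and *Lhx6* overlapped, though *Reln* was the higher in each of the 12 libraries. *Maf* was at 1.28 RPKM (0.913 to 1.54), clear of *Lhx6*. Below it came the 4 *Dlx* genes, with *Dlx5* at 1.05, *Dlx1* at 0.963, *Dlx2* at 0.684 and *Dlx6* at 0.426 RPKM, and last *Pvalb* at 0.245 RPKM. From *Maf* downward the ranges of neighbours in this order overlapped. *Maf* was above *Dlx5* in 11, *Dlx5* above *Dlx1* in 9, *Dlx1* above *Dlx2* in 12, *Dlx2* above *Dlx6* in 10 and *Dlx6* above *Pvalb* in 10 of the 12 libraries.

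The low levels of the *Dlx* genes and *Pvalb* have to be read beside the reads on chemosensory receptor genes, taken here as a background level for hippocampal cultures. The counted reads of a library numbered 18002585 to 30914714 for control and 11152556 to 30573480 for *Neuid* KD. The 2014 chemosensory receptor genes (olfactory, vomeronasal and taste receptors) took 26.7 to 667 CPM in the control group and 27.1 to 617 CPM after *Neuid* KD. The means were 320 ± 281 CPM for control and 232 ± 229 CPM for *Neuid* KD (SD, n = 6 each), a difference smaller than the spread within either group (exact two-sided permutation test over 924 arrangements, p = 0.556). This background was under 100 CPM in 2 control and 3 *Neuid* KD libraries. Per kb of exon, *Dlx1* was 11.1 to 234 times, *Dlx2* 4.48 to 161 times, *Dlx5* 8.05 to 235 times and *Dlx6* 4.86 to 77.8 times above the background of the same library, so that background at this density would make up at most 22.3% of a *Dlx2* value and 20.6% of a *Dlx6* value. For *Reln* it would make up at most 2.34%, and for *Calb2* at most 0.0696%. *Pvalb* ranged from 0 to 24.9 times the background, and in *Neuid* KD replicate 6 it was at 0.912 times.

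**Figure D1:**
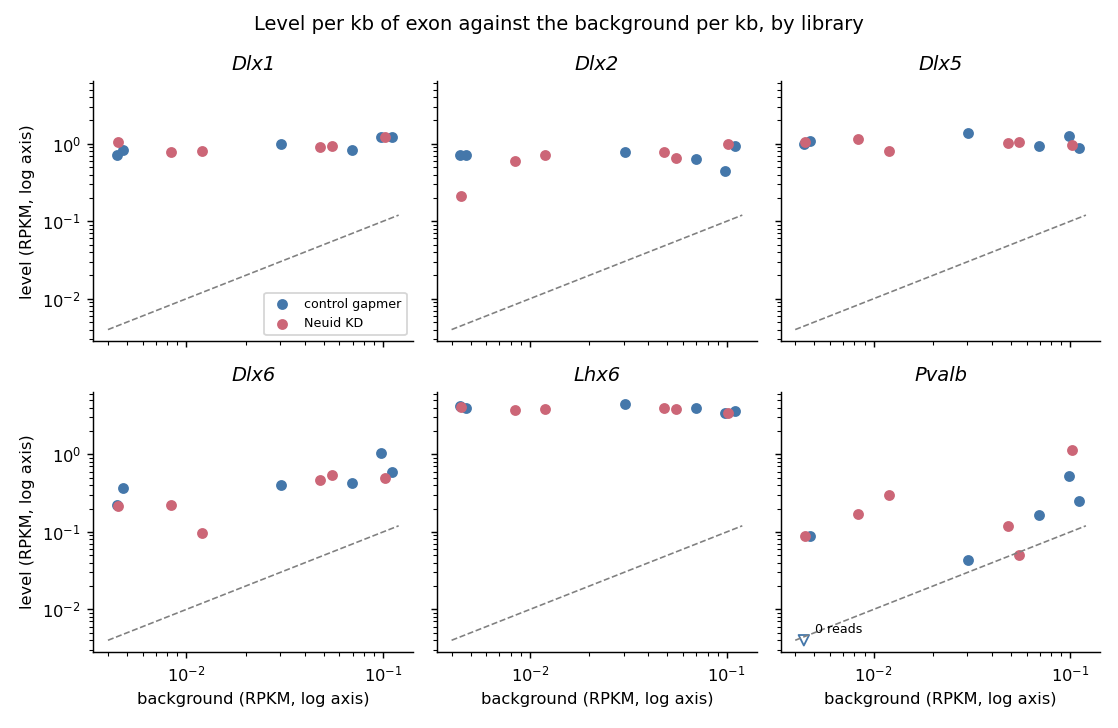
Level of 6 of the genes (vertical axis, RPKM, log scale) against the background on chemosensory receptor genes (horizontal axis, RPKM, log scale), 1 point per library, 6 control and 6 *Neuid* KD; on the dashed line both are equal, and the open triangle, set at the foot of the axis, is the control library with 0 *Pvalb* reads. The *Dlx* genes and *Lhx6* lie above the line in all 12 libraries, while *Pvalb* reaches it.

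*Dlx1* was at 6.61, 4.48, 3.87, 6.59, 4.53 and 5.42 CPM in control replicates 1 to 6 and at 6.65, 4.38, 5.66, 4.16, 4.92 and 5.08 CPM in *Neuid* KD replicates 1 to 6. The groups covered nearly the same range, and the lowest library was a control. The means were 5.25 ± 1.15 and 5.14 ± 0.910 CPM (SD, n = 6 each), with a log2 fold change of -0.04 (95% interval -0.36 to 0.29, edgeR adjusted p = 0.938). *Dlx2*, its partner in the locus, was at 2.68, 1.84, 2.03, 1.25, 2.04 and 2.26 CPM in control and at 2.86, 2.06, 0.608, 1.71, 2.21 and 1.88 CPM in *Neuid* KD. Both the highest and the lowest value came from *Neuid* KD, and *Neuid* KD replicate 3, the lowest, held 13 reads. The log2 fold change of *Dlx2* was -0.10 (95% interval -0.74 to 0.54, edgeR adjusted p = 0.915).

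*Dlx5* was at 2.01, 2.14, 2.23, 2.83, 2.45 and 3.07 CPM in control and at 2.19, 1.82, 2.39, 2.62, 2.34 and 2.35 CPM in *Neuid* KD, with means of 2.46 ± 0.417 and 2.29 ± 0.266 CPM (SD, n = 6 each). The *Neuid* KD values lay among the control values except for the lowest of them. The log2 fold change was -0.10 (95% interval -0.48 to 0.28, edgeR adjusted p = 0.856). *Dlx6* was the most variable of the family, at 1.39, 1.03, 0.534, 2.51, 0.879 and 0.949 CPM in control and at 1.18, 0.233, 0.515, 0.525, 1.11 and 1.31 CPM in *Neuid* KD. In *Neuid* KD, 3 libraries lay below the lowest control and the other 3 among the controls, and the read counts behind these values were 6 to 54. The log2 fold change of *Dlx6*, -0.59, was the lowest of the 8 genes and had the widest 95% interval (-1.60 to 0.42, edgeR adjusted p = 0.621), and it was -0.25 without control replicate 4. The 4 *Dlx* genes were therefore measured with different precision: for *Dlx1* and *Dlx5* the interval stayed within 0.5 of 0 on the log2 scale, and for *Dlx2* and *Dlx6* it did not.

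*Lhx6*, which encodes a LIM homeodomain factor needed for the somatostatin and parvalbumin lineages, was at 17.2, 18.8, 20.5, 16.7, 18.9 and 21.8 CPM in control and at 16.3, 18.4, 19.9, 17.9, 18.9 and 18.6 CPM in *Neuid* KD. The values interleaved. With means of 19.0 ± 1.92 and 18.3 ± 1.21 CPM (SD, n = 6 each), the log2 fold change was -0.05 and its 95% interval the second narrowest of the 8 genes, -0.20 to 0.10 (edgeR adjusted p = 0.812). *Maf*, a leucine zipper factor of the same lineage that is also used outside the nervous system, was at 9.91, 12.7, 11.3, 10.9, 11.1 and 11.8 CPM in control and at 10.6, 7.53, 8.66, 11.2, 10.2 and 10.5 CPM in *Neuid* KD. *Neuid* KD replicates 2 and 3 lay below every control, and all 6 *Neuid* KD values were below the control median. The means were 11.3 ± 0.934 and 9.77 ± 1.39 CPM (SD, n = 6 each) and the log2 fold change was -0.22 (95% interval -0.41 to -0.02). The unadjusted p was 0.0329 and the edgeR adjusted p 0.204, and the adjusted p stayed between 0.0838 and 0.977 under the 25 other settings tried.

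*Reln* was at 160, 150, 150, 146, 180 and 172 CPM in control replicates 1 to 6 and at 104, 149, 141, 141, 141 and 137 CPM in *Neuid* KD replicates 1 to 6. In *Neuid* KD, 5 of the 6 libraries lay below the lowest control, and only replicate 2 fell among the controls. *Neuid* KD replicate 1, the shallowest library, was far below the rest. The means were 160 ± 13.7 CPM for control and 135 ± 16.1 CPM for *Neuid* KD (SD, n = 6 each), and the log2 fold change was -0.23 (SE 0.0783, 95% interval -0.40 to -0.07, unadjusted p = 0.00843, edgeR adjusted p = 0.0808). The sign was negative under every one of the 25 other settings tried, with log2 fold changes from -0.29 to -0.19, but the adjusted p passed 0.05 in only 8 of them. Without *Neuid* KD replicate 1 the adjusted p was 0.0146 at a log2 fold change of -0.21. The adjusted p was also under the threshold with DESeq2 (0.0278). DESeq2 made more false calls than edgeR on simulated counts, but these used edgeR's dispersions and cannot rank the tests for these data. In edgeR the adjusted p of *Reln* was under the threshold with 1 or 2 factors of unwanted variation (0.0006 and 0.0013). It was so with the background as a covariate (0.0008) too. The same held with upper-quartile normalization (0.0041), over genes averaging 1 CPM or more (0.013) and in the 5 libraries of low background (0.0043). In the 7 libraries of higher background the adjusted p was 0.171 at a log2 fold change of -0.29. At the other end stood the fit without a filter on low counts (0.541) and the fits with offsets for GC content and length, with a replicate block (0.859) and without (0.965). The size of the *Reln* difference was thus much the same in all these fits, and which side of the threshold it fell on was not.

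**Figure D2:**
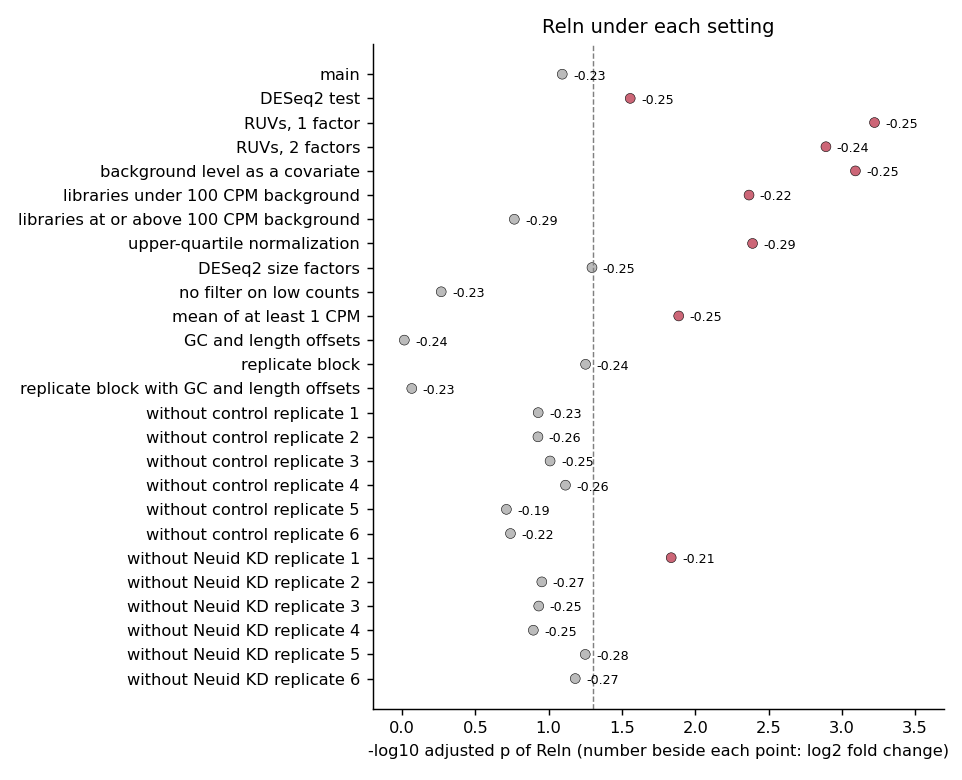
*Reln* under the reported fit (top, named main) and the 25 other settings (rows), with −log10 of the adjusted p on the horizontal axis, the dashed line at 0.05 and the log2 fold change printed beside each point. The 8 red points right of the line have an adjusted p under 0.05, and every printed log2 fold change is between -0.29 and -0.19.

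*Calb2*, which encodes a calcium-binding protein, was the only one of the tested genes with a positive log2 fold change. It was at 277, 319, 347, 294, 345 and 320 CPM in control, against 322, 358, 359, 359, 341 and 301 CPM in *Neuid* KD. In *Neuid* KD, 3 libraries lay above the highest control, yet 1 lay near the low end of the control range. The means were 317 ± 27.8 and 340 ± 24.0 CPM (SD, n = 6 each) and the log2 fold change was 0.10 (95% interval -0.03 to 0.24, edgeR adjusted p = 0.462).

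*Pvalb*, the calcium-binding protein of fast-spiking interneurons, was barely detected. It had 5, 4, 0, 12, 2 and 1 reads in control replicates 1 to 6 and 14, 8, 2, 5, 3 and 1 reads in *Neuid* KD replicates 1 to 6. The 0 reads of control replicate 3 allow a level of up to 0.10 CPM, taking 3 reads as the limit that a count of 0 allows and covering counting error only. *Pvalb* reached 1.18 CPM in *Neuid* KD replicate 1 and at most 0.310 CPM in the other *Neuid* KD libraries. It was under the filter on low counts and was not tested in the reported fit. In the fit without a filter the log2 fold change was 0.75 with an edgeR adjusted p of 0.959, so a difference in *Pvalb* was not detectable at this depth.

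**Figure D3:**
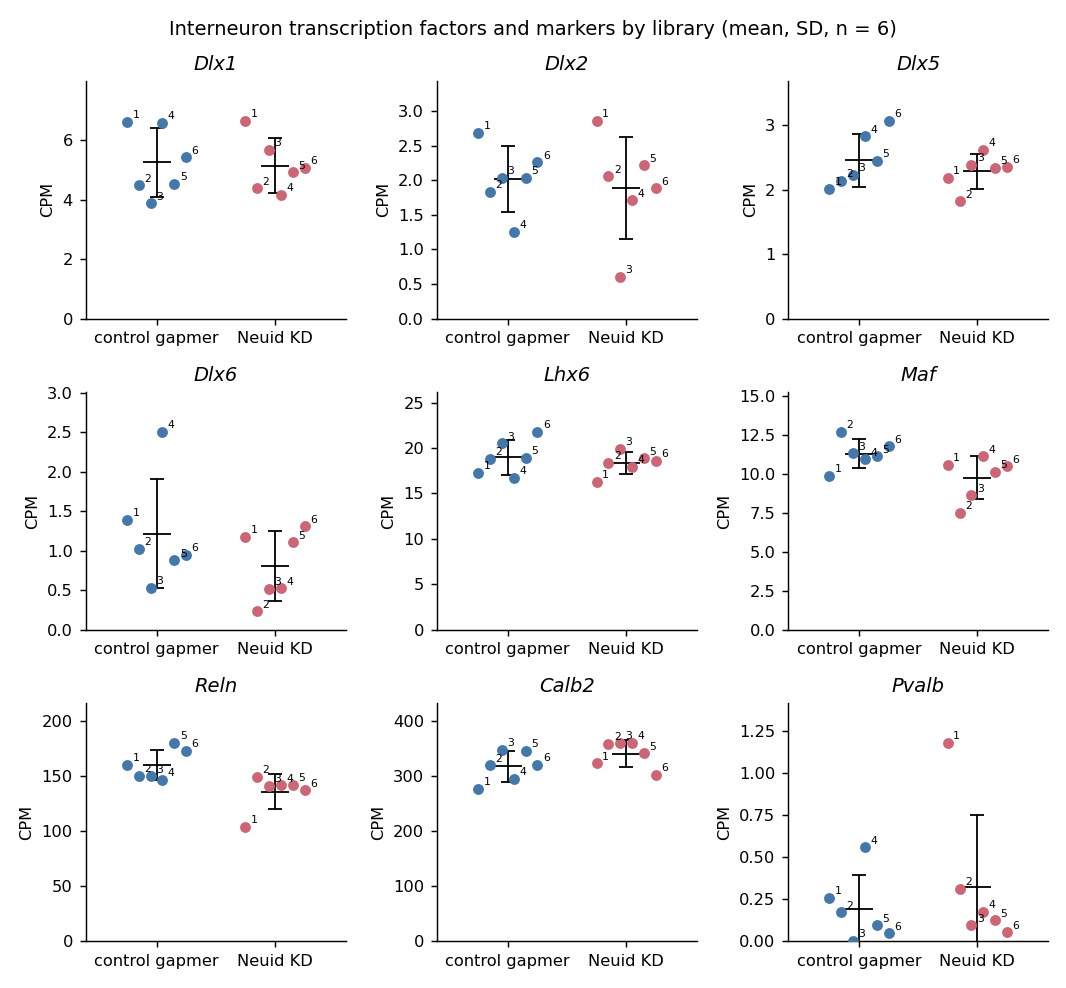
Level of each of the 9 genes in CPM (vertical axis, from 0, a separate scale in each panel) in the 6 control and 6 *Neuid* KD libraries; each point is a library with its replicate number, and the bar is the mean ± SD. The groups overlap for all 9 genes, with 5 of the 6 *Neuid* KD libraries below the lowest control for *Reln*.

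Among the 8 tested genes, 0 had an adjusted p under 0.05 with edgeR and 2 had an unadjusted p under 0.05 (*Reln* and *Maf*). With DESeq2, 1 (*Reln*) had an adjusted p under 0.05. DESeq2 made more false calls than edgeR on counts simulated with edgeR's dispersions, which cannot rank the tests for these data. Over all 19578 tested genes, 8.72% had an adjusted p under 0.05 (6.31% of all tested genes were higher and 2.42% lower in *Neuid* KD), and 3.23% also differed by more than 0.5 on the log2 scale (2.44% higher and 0.792% lower). An unadjusted p under 0.05 was found for 18.8% of all genes, and for 6.96% with a negative fold change. The groups overlapped for each of the 8 genes. Over all tested genes, 5.70% had groups that did not overlap (4.13% higher and 1.57% lower in *Neuid* KD). Overlap in 8 genes therefore does not set them apart from the rest. A negative log2 fold change was common, at 55.6% of all tested genes, and the median over all genes was -0.03. For 6 of the 8 genes, all but *Dlx2* and *Dlx6*, the 95% interval lay within 0.5 of 0, which held for 52.0% of all tested genes. For these 6 genes a difference as large as the fold-change threshold was outside the interval.

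**Figure D4:**
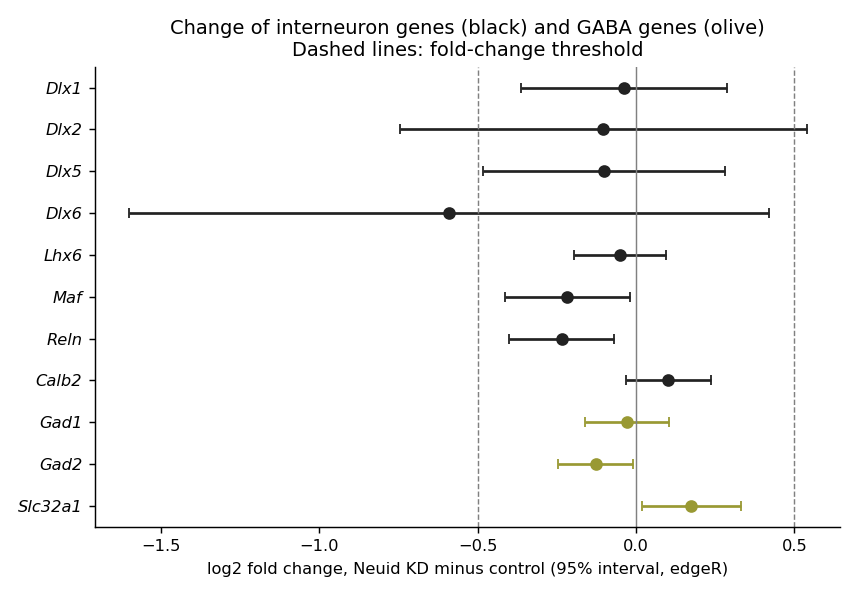
Log2 fold change of *Neuid* KD against control (horizontal axis) with its 95% interval from edgeR for the 8 tested interneuron genes (black) and 3 genes of GABA synthesis and vesicular transport (olive), with dashed lines at -0.5 and 0.5. The intervals of *Reln* and *Maf* lie below 0 and within the dashed lines, and that of *Dlx6* is the widest.

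In the 5 libraries of low background and the 7 of higher background taken apart, the signs of *Dlx5*, *Dlx6*, *Lhx6*, *Maf*, *Reln* and *Calb2* were the same on both sides. The log2 fold change of *Maf* was -0.33 in the libraries of low background and -0.12 in the others, and that of *Dlx6* was -0.74 and -0.28. *Dlx1* had 0.14 and -0.06, and *Dlx2* had -0.49 and 0.21, so neither kept its sign. Across the 12 libraries, log2 CPM correlated with log2 of the background with a Pearson r of 0.74 for *Dlx6*, 0.66 for *Dlx1* and -0.82 for *Calb2*, given as a description of libraries that share the same total. *Reln* had r = -0.34 and *Dlx5* r = -0.02.

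The *Dlx* loci are also read from the other strand. *Dlx1as* overlaps *Dlx1*, and *Dlx6os1*, a long noncoding RNA known as Evf2, and *Dlx6os2* overlap *Dlx6*. How the counting treated strand is not given in the sources used here, so the reads of these partners may not be fully told apart. *Dlx6os1* averaged 11.8 ± 1.70 CPM in control against 9.94 ± 1.41 CPM after *Neuid* KD (SD, n = 6 each; log2 fold change -0.24, edgeR adjusted p = 0.242). *Dlx1as* was at 3.20 ± 0.336 and 3.43 ± 0.894 CPM (SD, n = 6 each; log2 fold change 0.09, edgeR adjusted p = 0.869). The third, *Dlx6os2*, was under the filter. Reads from both strands of both loci thus gave no gene that passed. Of the nearest protein-coding neighbours of the 9 genes, *Itga6*, an integrin gene 198862 bp from *Dlx2*, was higher in *Neuid* KD (45.0 to 58.4 CPM, log2 fold change 0.38, edgeR adjusted p = 4.3e-05). *Metap1d*, *Sdhaf3*, *Sem1*, *Morn5*, *Rbm18*, *Wwox*, *Orc5*, *Cmtr2*, *Ift27* and *Ncf4* did not pass. *Slc26a5*, *Dynlrb2* and *Gm21964* were under the filter. The genes overlapping *Lhx6*, *Maf* and *Reln* were at a mean of under 1 CPM, and *Gm10475*, opposite *Reln*, was the only one of them tested (log2 fold change -0.84, edgeR adjusted p = 0.769).

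The 9 genes were set beside lists of genes for interneurons, the reelin pathway, other neurons, glia and other cell types. The lists held 106 genes in all, of which 97 were tested. Of these, 21 were higher and 2 lower at an edgeR adjusted p under 0.05, against 6.31% and 2.42% of all tested genes. Astrocyte markers made up 8 of the 21 and markers of the oligodendrocyte lineage 2. The median log2 fold change of the 97 genes was 0.03, against -0.03 over all tested genes. The enzymes of GABA synthesis and the vesicular GABA transporter, which define a GABAergic neuron, did not pass. *Gad1* (glutamate decarboxylase) was at 80.9 ± 6.17 and 79.3 ± 6.72 CPM (SD, n = 6 each; log2 fold change -0.03, edgeR adjusted p = 0.886), *Gad2* had -0.13 (edgeR adjusted p = 0.220), and the transporter *Slc32a1* had 0.17 (edgeR adjusted p = 0.192).

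Other transcription factors of the interneuron lineage differed in both directions. Of 17, 13 were tested, 4 were higher, 1 was lower and 8 did not pass. *Sox6* rose from 19.3 ± 1.59 to 38.3 ± 2.00 CPM (SD, n = 6 each; log2 fold change 0.99, edgeR adjusted p = 2.6e-09). This factor is also expressed by oligodendrocyte precursors. *Satb1* (0.21), named after its value was seen, was higher as well. *Etv1*, a factor also used by excitatory neurons, fell from 39.1 ± 2.18 to 29.4 ± 2.13 CPM (SD, n = 6 each; log2 fold change -0.40, edgeR adjusted p = 7.7e-05). *Nkx2-1*, *Lhx8*, *Gsx1* and *Gsx2* were under the filter.

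Of 15 subtype markers of interneurons, 2 were higher and 13 did not pass. *Cck*, a neuropeptide that pyramidal neurons also make, rose from 36.3 ± 4.55 to 63.1 ± 4.20 CPM (SD, n = 6 each; log2 fold change 0.79, edgeR adjusted p = 9.8e-07), and *Id2* had 0.36 (edgeR adjusted p = 0.00237). *Sst*, the peptide of the somatostatin cells that need *Lhx6*, was at 12.8 ± 2.30 and 12.4 ± 0.772 CPM (SD, n = 6 each; log2 fold change -0.04, edgeR adjusted p = 0.905). *Vip* had -0.63 at an edgeR adjusted p of 0.244, with 2.00 CPM in control. Of 12 genes of migration and fast spiking, *Erbb4*, the neuregulin receptor, was the only one to pass, at 24.9 ± 2.40 and 43.2 ± 4.96 CPM (SD, n = 6 each; log2 fold change 0.80, edgeR adjusted p = 1.8e-06). *Kcnc1*, a potassium channel of fast-spiking cells, had 0.07 (edgeR adjusted p = 0.766).

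The partners of reelin were set beside *Reln*. Its receptors *Vldlr* and *Lrp8* had log2 fold changes of -0.02 and 0.10, and *Dab1*, the adaptor that both receptors bind, had 0.03 (edgeR adjusted p = 0.917, 0.384 and 0.859). Of the 9 genes of this pathway, 2 were higher. *Fyn*, the kinase that phosphorylates Dab1, had 0.31 on the log2 scale (edgeR adjusted p = 0.00137), and the adaptor *Crkl* had 0.20 (edgeR adjusted p = 0.0297). *Crkl* had an adjusted p under 0.05 in 9 of the 25 other settings. Of 7 markers of Cajal-Retzius cells, a source of reelin, 0 passed in edgeR. Their log2 fold changes were -1.07 (*Ebf3*), -0.39 (*Trp73*), -0.20 (*Lhx5*), -0.12 (*Ndnf*, also listed as an interneuron subtype marker), 0.003 (*Cacna2d2*), 0.03 (*Lhx1*) and 0.04 (*Nhlh2*). *Trp73*, which defines these cells, was at 1.73 ± 0.935 and 1.33 ± 0.339 CPM (SD, n = 6 each). The 95% intervals of *Ebf3* (-2.34 to 0.19) and *Trp73* (-1.22 to 0.44) were too wide to tell a lower level from an unchanged one.

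Astrocyte markers and part of the oligodendrocyte lineage markers were higher in *Neuid* KD. All 8 astrocyte markers rose, and their summed level was 1758 to 2252 CPM in control against 4162 to 4696 CPM after *Neuid* KD. Of 5 markers of the oligodendrocyte lineage, 2 were higher, *Olig1* (78.2 to 216 CPM) and *Olig2* (10.5 to 33.6 CPM, means). *Pdgfra*, *Cspg4* and *Sox10* did not pass (edgeR adjusted p = 0.223, 0.625 and 0.954). The sum of the 5, most of it *Olig1*, was 94.1 to 115 CPM in control against 247 to 290 CPM after *Neuid* KD. Microglial markers summed to 1.73 to 7.10 and 1.29 to 7.24 CPM, endothelial markers to 5.74 to 14.7 and 6.46 to 13.3 CPM, and fibroblast markers to 25.9 to 42.2 and 24.2 to 35.7 CPM, and none of their tested genes passed. No gene of these 5 lists was at 0 in all libraries. Of 6 pan-neuronal markers, 0 passed in edgeR, among them *Map2* (log2 fold change -0.01) and *Stmn2* (-0.07), and of 9 markers of excitatory neurons *Camk2a* was higher (0.38) and *Slc17a6* lower (-0.34). The part of the glial markers in the values of *Reln*, *Maf*, *Sox6* and *Erbb4* was not tested. With offsets for GC content and length, *Etv1*, *Id2*, *Fyn*, *Camk2a* and *Slc17a6* had log2 fold changes of -0.43, 0.43, 0.36, 0.38 and -0.29 without an edgeR adjusted p under 0.05 (0.0695, 0.682, 0.827, 0.327 and 0.943), and without a filter on low counts neither did *Fyn*, *Camk2a* and *Slc17a6* (0.159, 0.189 and 0.0711). In the libraries of higher background *Fyn* had 0.34 at an edgeR adjusted p of 0.0511.

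**Figure D5:**
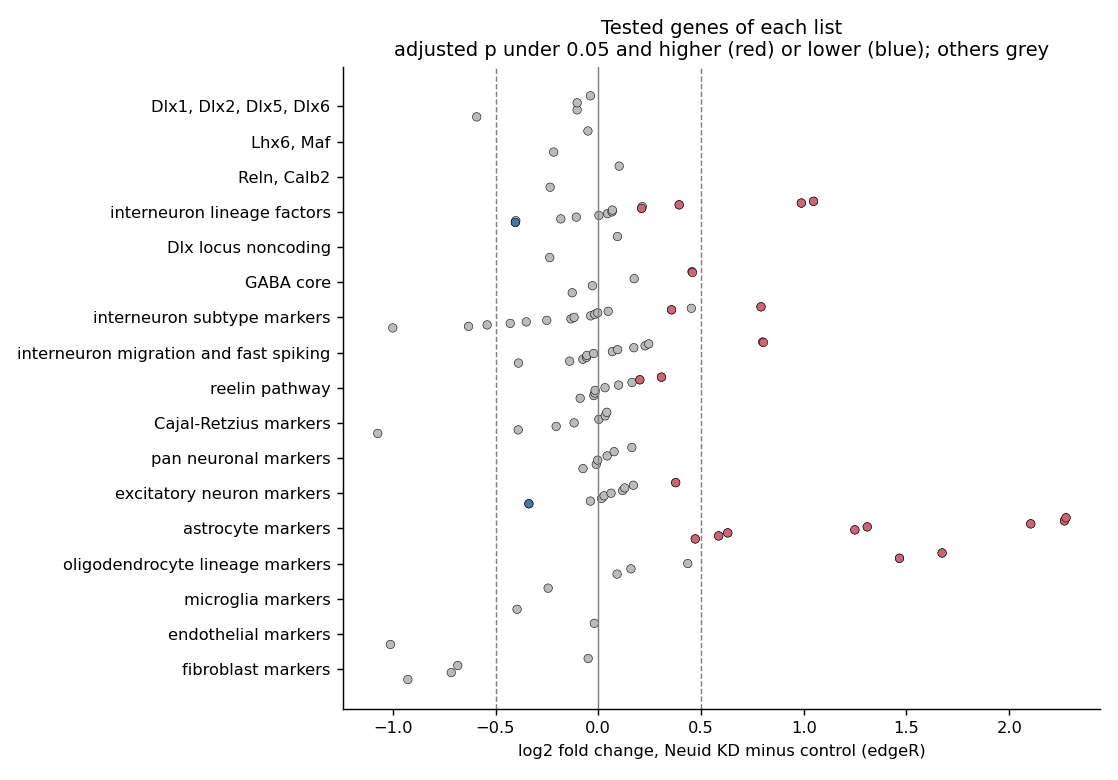
Log2 fold change of *Neuid* KD against control (horizontal axis, edgeR) for every tested gene of each list (rows), in red or blue where the adjusted p is under 0.05 and the gene is higher or lower, with dashed lines at -0.5 and 0.5. The 8 interneuron genes in the top 3 rows are all grey, and all 8 astrocyte markers are red.

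The 9 genes were also compared with each other over the 12 libraries. The Pearson r of log2 CPM between any pair ranged from -0.85 for *Lhx6* and *Pvalb* to 0.66 for *Dlx1* and *Dlx6*. *Pvalb* had only 0 to 14 reads per library. With log2 of the background, r was 0.58 for *Pvalb* and -0.55 for *Lhx6*. The part of low counts and background in the r of -0.85 was not tested. The neighbours *Dlx1* and *Dlx2* had r = -0.03, and *Dlx5* and *Dlx6* had r = 0.42. Over the whole table, the genes whose log2 CPM followed each gene most closely were *Cic* (r = 0.95) and *Grin1* (0.95) for *Reln*, *Oxct1* (0.97) and *Thap12* (0.96) for *Calb2*, and *Clk4* (0.91) and *Mlxip* (0.90) for *Lhx6*. They were *Gm8010* (0.88) and *Ano5* (0.85) for *Maf*, *Capn3* (0.93) and *Cdca4* (0.92) for *Dlx1*, and *Gm32175* (0.94) and *Dleu7* (0.89) for *Dlx2*. For *Dlx5* they were *Magi1* (0.87) and *Cpsf1* (0.86), and for *Dlx6* *Rslcan18* (0.96) and *Mmrn1* (0.96). No interneuron gene was among them. Each is the highest r among all tested genes, over 12 libraries that share group and background, and is given as a description.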

How the data were processed

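Total RNA-seq was made from 12 primary hippocampal culture libraries, 6 with the negative control gapmer and 6 with the *Neuid* gapmer. The authors prepared the libraries with a stranded total RNA kit, aligned the reads with STAR to mm10 and deposited whole-number counts per Ensembl gene, counted with featureCounts and not normalized. The annotation release and the strand setting of the counting are not given in the sources used here. Symbols, positions and exon lengths were taken from GENCODE M21 on GRCm38 and matched 55230 of 55471 gene IDs.

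Counts were normalized with TMM, filtered with filterByExpr and fitted in edgeR 4.0.16 (quasi-likelihood, R 4.3.3), with group as the only term and all 12 libraries. P-values were adjusted with the Benjamini-Hochberg method over 19578 genes. A gene passed at an adjusted p under 0.05 and was called at a log2 fold change above 0.5 in size as well. Intervals are 95% intervals of the fitted log2 fold change. CPM used TMM library sizes, and log2 CPM a prior count of 0.5. RPKM, exact permutation tests and correlations between libraries were computed in R. Correlations of genes with each other and with the background were computed in Python 3.11.15. The study used DESeq2 with RUVseq, without stating the number of factors, so these were run as alternatives (DESeq2 1.42.0, and RUVs with 1 or 2 factors, written out by hand). Further alternatives were a background covariate, libraries split at 100 CPM of background, other scalings and filters, GC and length offsets, a replicate block, leaving out each library in turn and other fold-change thresholds. The tests were tried on simulated counts with known changes first, where DESeq2 made more false calls than edgeR. These counts used edgeR's own dispersions and filter and left out the differences in background between libraries. They therefore cannot rank DESeq2 and edgeR for these data.

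The 9 genes and all lists were chosen with earlier results of these data known. The named genes were the 9 genes with values in every library, *Neuid*, overlapping and nearest protein-coding genes, up to 3 genes of each list with the largest change among those that passed (where fewer than 2 passed, also the 2 of highest level), sums for other cell types, and the 2 genes of highest correlation with each tested gene. Values of other list genes in the text were added after they were seen, and some genes of the lists are not reported here. Replicates were compared by chi-square per degree of freedom, which was at least 3.30 between any libraries of a group, so that none was counted as a duplicate.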

Additional observations from a re-analysis of the deposited data

Results flagged for a closer look

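In 58 groups of 6 libraries (29 named genes, control and *Neuid* KD), the highest or lowest library was compared with the others by Dixon's test, and 6 groups held a library that stood apart, which chance does in about 1 in 20 groups. In all 6 it was *Neuid* KD replicate 1, the library with the fewest reads. *Reln* was at 104 CPM there and at 137 to 149 CPM in the other *Neuid* KD libraries. *Pvalb* was at 1.18 CPM, from 14 reads, against 0.0523 to 0.310 CPM. *Etv1* was at 25.3 CPM against 29.3 to 31.4 CPM, *Erbb4* at 33.3 CPM against 43.5 to 46.8 CPM, and *Kcnc1* at 70.9 CPM against 98.4 to 105 CPM. *Map2* was at 2106 CPM against 2594 to 2790 CPM. Without this library the log2 fold change of *Reln* was -0.21 in place of -0.23, and its edgeR adjusted p 0.0146 in place of 0.0808.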

How the results depend on the processing

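None of the 9 genes was called, in either direction, under any alternative. At an adjusted p under 0.05 with no fold-change threshold, 1 gene (*Reln*) was lower with DESeq2, RUVs with 1 or 2 factors, the background covariate, libraries under 100 CPM of background, upper-quartile normalization, a mean of at least 1 CPM, and without *Neuid* KD replicate 1 (0 to 1 over the 12 fits that left out a library). Over all genes, 155 were called lower in the reported fit, 283 and 260 with 1 and 2 RUVs factors, 300 with the background covariate, 98 with GC and length offsets, 89 with these offsets and the replicate block, and 123 to 269 when a library was left out, the most without *Neuid* KD replicate 1. The genes called higher numbered 388 to 572 under all alternatives. With upper-quartile normalization the share of higher genes among those called went from 75.5% to 64.1%, and among those at an adjusted p under 0.05 from 72.3% to 45.5%. At that threshold alone, 396 to 1776 genes were higher and 89 to 1259 lower. In the context lists, 13 entries were called higher and 0 lower, against 21 and 2 with no fold-change threshold, 2 lower above 0.3, 1 lower with either RUVs fit and 3 lower with the background covariate. *Neuid* stayed between -1.93 and -1.74. The cause of these shifts was not tested.

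Signs changed only for log2 fold changes near 0. *Dlx1* went to 0.017 and 0.021 with 1 and 2 RUVs factors, to 0.024 with GC and length offsets, to 0.0216 with these offsets and the block, to 0.0062 with the background covariate, to 0.14 in libraries of low background, and lay between -0.16 and 0.038 when a library was left out. *Dlx2* went to 0.21 in libraries of higher background and lay between -0.29 and 0.074 when a library was left out, the highest without *Neuid* KD replicate 3. *Dlx1as* (-0.11, libraries of low background; -0.040 to 0.17, a library left out), *Gad1* (0.016, higher background; -0.097 to 0.011), *Nhlh2* (-0.0097, higher background; -0.021, upper-quartile; -0.015 to 0.081) and *Map2* (-0.049 to 0.0093) also crossed 0. The replicate numbers did not pair the samples: deviations of same-numbered libraries correlated between -0.62 and 0.80, and 2 of 6 control libraries followed their own number best. With the replicate block 474 genes were called higher and 167 lower, and *Reln* had an adjusted p of 0.056. Depth limits *Dlx6* and *Pvalb* most, with 6 to 54 and 0 to 14 reads per library.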
